A study of Homo sapiens with 38 samples.

Results

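The 36 genes described here encode aminoacyl-tRNA synthetases, the enzymes that join each amino acid to its transfer RNA (tRNA). They were taken by name from a fixed list: 20 symbols without a final 2 form the cytosolic set and 16 symbols ending in 2 form the mitochondrial set. All 36 were present in every count file, among 50652 gene symbols in the files of the BE2C line and 50778 in those of the other 4 lines, and all 36 passed the filter on low counts in each of the 3 experiments. The members were named without reference to any measured value, but with earlier results of these data known.

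A synthetase recognises 1 amino acid and the matching tRNAs, uses ATP to activate the amino acid and transfers it to the end of the tRNA, which the ribosome then uses. The cytosol and the mitochondrial matrix use largely separate enzymes, all encoded in the nucleus, and the mitochondrial ones are imported to serve the small set of proteins translated from mitochondrial DNA. GARS and KARS each encode both forms, the fused enzyme EPRS charges glutamate and proline, FARSA and FARSB are the subunits of a single phenylalanine enzyme, and 8 cytosolic members (DARS, EPRS, IARS, KARS, LARS, MARS, QARS and RARS) are bound in a multi-enzyme complex. Several cytosolic synthetase genes are known targets of ATF4, the transcription factor of the integrated stress response, through composite C/EBP-ATF elements near their start sites.

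The study asked what depends on the histone demethylase KDM6B in neuroblastoma, a tumour of the sympathetic lineage, and set the KDM6 inhibitor GSK-J4 beside palbociclib, an inhibitor of the cyclin-dependent kinases CDK4 and CDK6. RNA-seq covered 27 libraries of cultured cell lines, and each BE2C library had 2 files, which were summed. BE2C cells, a line with MYCN amplification, received GSK-J4 at 2.5 µM for 0, 24 or 48 h (2 libraries each, no untreated culture at 24 or 48 h), or a control siRNA (siCtrl, 2 libraries) or an siRNA directed at KDM6B (called N1, N2 or N33, with 1 library each) for 72 h. CHLA15 and CHLA20 cells received palbociclib at 300 nM, and NB1643 and NB1691 cells 3 µM, for 72 h (2 libraries per line), and each line had 2 libraries labelled as untreated; dose and line therefore cannot be told apart between these pairs of lines. The labels give extraction from xenograft tissue in the protocol field, whereas the growth and treatment fields and the study's methods describe cultured cells. Nothing in the labels says that libraries of a group came from separate cultures, so the p-values measure only the spread between these libraries.

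Gene counts per library ran from 36186567 to 93011010, and cytosolic members together took 0.312% to 0.789% of them, mitochondrial members 0.0451% to 0.0899%. Levels are given as CPM, counts per 1000000 counts of the library after scaling by the trimmed mean of M-values (TMM) within each experiment, and are not compared between experiments. The summed level of 7 sympathetic neuroblastoma markers was 491 to 1191 CPM in the BE2C libraries, 1867 to 2879 CPM in CHLA15, CHLA20 and NB1643, and 263 to 325 CPM in NB1691. In NB1691, TH (tyrosine hydroxylase) was between 0.688 and 1.99 CPM and the stromal gene LUM reached 2129.6 CPM. The other stromal gene, DCN, did not share this rise. It was at 2.13 to 3.05 CPM in NB1691, 75.1 to 117 CPM in CHLA15 and CHLA20, and at most 0.345 CPM in NB1643. The blood cell markers PTPRC and CD3E stayed below 1 CPM in every library. The endothelial gene PECAM1 was at 2.35 to 3.84 CPM in NB1691 and at most 0.0312 CPM in CHLA15, CHLA20 and NB1643, and had no entry for BE2C. KDM6B itself was not lower in the libraries labelled siKDM6B (8.99, 7.11 and 8.26 CPM) than in siCtrl (6.47 and 8.76 CPM), and it rose under GSK-J4 by 1.07 at 24 h and 1.58 at 48 h on the log2 scale. In bulk RNA, fewer cells of a kind and less RNA per cell cannot be told apart.

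The stretches of promoter that hold a C/EBP-ATF element are printed first, because all 7 cytosolic holders were called in the same direction in 4 of the 8 contrasts below. All 7 rose after 24 h of GSK-J4, where 3 of the 9 searched cytosolic members without it rose and 5 fell. All 7 fell from 24 to 48 h, in CHLA15 and in CHLA20, where 7, 6 and 7 of those 9 fell too. Among all genes tested, 27.3% were called higher and 28.0% lower at 24 h. The shares called lower were 28.0% from 24 to 48 h, 15.6% in CHLA15 and 15.9% in CHLA20. These 4 contrasts were singled out after their outcome was seen. The GSK-J4 contrasts share the 24 h libraries. The RefSeq promoter table (GRCh38.p14, 250 bases before to 50 after a start site) held 30 of the 36 members, 16 cytosolic and 14 mitochondrial; DARS, LARS, VARS, YARS, AARS2 and VARS2 were not searched. Each line gives 30 bases, 5′ to 3′ on the gene's strand, with the match to TGATGNAA on either strand in capitals:
AARS, chr16:70289675-70289704 (minus strand): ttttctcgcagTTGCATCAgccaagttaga
CARS, chr11:3057407-3057436 (minus strand): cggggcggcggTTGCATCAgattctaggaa
GARS, chr7:30594834-30594863 (plus strand): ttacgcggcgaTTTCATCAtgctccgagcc
IARS, chr9:92293692-92293721 (minus strand): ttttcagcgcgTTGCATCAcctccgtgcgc
MARS, chr12:57488053-57488082 (plus strand): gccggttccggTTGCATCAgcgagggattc
NARS, chr18:57621804-57621833 (minus strand): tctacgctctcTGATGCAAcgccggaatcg
TARS, chr5:33440956-33440985 (plus strand): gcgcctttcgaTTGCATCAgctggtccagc
YARS2, chr12:32756076-32756105 (minus strand): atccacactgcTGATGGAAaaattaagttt
The element was found in 7 of 16 cytosolic promoters (43.8%), in 1 of 14 mitochondrial promoters (7.14%) and in 3.62% of all 35116 promoters of the table. In 6 of the 7 cytosolic genes it read TGATGCAA on 1 strand or the other, and GARS alone had another base at the free position. The first base of the match lay before the start by 187 bases for AARS, 2 for CARS, 33 for GARS, 13 for IARS, 4 for MARS and 197 for YARS2. For NARS it lay at position 15 and for TARS at position 3, with the start site itself counted as position 1. Searched in the same way, the E-box CACGTG was found in 1 cytosolic promoter (IARS) and 3 mitochondrial promoters (CARS2, EARS2 and MARS2) against 7.26% of all promoters, the NRF1 motif GCATGCGC in MARS2 and YARS2 against 3.05%, and the E2F motif GGCGGGAA in none of the 30 against 3.16%. A match is a description of the letters and not a measured binding site.

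Per kilobase of exonic sequence of the canonical transcript, cytosolic members stood above mitochondrial ones before treatment. In BE2C at 0 h the median level was 87.5 CPM per kilobase over the 20 cytosolic members (range 22.3 to 234) and 17.9 over the 16 mitochondrial members (range 1.19 to 57.2). SARS, the serine enzyme, led at 234 CPM per kilobase, followed by TARS (threonine) at 205 and IARS (isoleucine) at 201. IARS2 was the highest of the mitochondrial set at 57.2, above FARSA, WARS, DARS, FARSB and CARS of the cytosolic set, and PARS2 and SARS2 were lowest at 2.59 and 1.19. The same ordering of medians held in the untreated libraries of the other lines, from 55.9 against 10.1 in NB1643 to 68.4 against 10.3 in CHLA20. SARS2 is the least certain value, since 77.5% of its exonic bases also belong to exons of another annotated coding gene. Exon lengths and overlaps come from a GENCODE annotation of GRCh37, which need not be the one used for counting.

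After 24 h of GSK-J4, 12 cytosolic synthetases rose and 6 fell, whereas 2 mitochondrial synthetases rose and 8 fell (edgeR quasi-likelihood test, Benjamini-Hochberg adjusted p under 0.05). Of all 17734 genes tested, 27.3% were called higher and 28.0% lower. The median log2 fold change was 0.14 over the cytosolic set, −0.11 over the mitochondrial set and 0.01 over all genes. The sets thus differed by 0.26. A second quantity, called the level difference, is the cytosolic minus mitochondrial median of log2(CPM + 0.5) in each library. Its standard deviation between replicate libraries was 0.03 here, from 2 libraries a group. That value is not a standard error of the 0.26. Cytosolic members together took 0.624% and 0.634% of counts at 0 h and 0.765% and 0.771% at 24 h, while the mitochondrial share went from 0.0847% and 0.0844% to 0.0745% and 0.0748%. The shares at 0 h and at 24 h did not overlap in either set. The summed neuroblastoma markers went from 1172 and 1191 CPM at 0 h to 1055 to 1069 CPM at 24 h and 818 to 842 CPM at 48 h. Of these 7, 5 were lower at 24 h and 6 at 48 h. The summed stromal and other cell markers went from 13.1 and 13.8 CPM to 5.33 to 6.00 CPM and 7.75 to 7.89 CPM. Of the 3 tested, DCN and LUM were called lower and the epithelial gene EPCAM higher at both times. EPCAM went from 0.718 and 0.507 CPM at 0 h to 2.81 and 3.10 CPM at 48 h. Their part in the synthetase changes was not tested.

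WARS, the tryptophan enzyme (chromosome 14, 100800127 to 100843142, minus strand, GRCh37), had the largest rise of any member: 103 and 105 CPM at 0 h, 234 and 236 CPM at 24 h and 151 and 151 CPM at 48 h. Its log2 fold change at 24 h was 1.18 ± 0.03 (SE; adjusted p = 1.54e-32), and it had given back part of the rise by 48 h. CARS, the cysteine enzyme (chromosome 11, 3022152 to 3078843, minus strand), measured 60.0 and 62.3 CPM at 0 h, 125 and 119 CPM at 24 h and 99.6 and 101 CPM at 48 h. Every treated library of CARS stood above both 0 h libraries, with 0.996 ± 0.04 at 24 h (adjusted p = 4.56e-27). GARS, which charges glycine in both compartments (chromosome 7, 30620149 to 30673649, plus strand), measured 299.9 and 309.7 CPM at 0 h, 524 and 545 CPM at 24 h and 455 and 467 CPM at 48 h. The 24 h change of GARS was 0.81 ± 0.03 (adjusted p = 1.17e-27). The other cytosolic rises over 0.5 at 24 h were AARS (alanine) at 0.62 ± 0.03, EPRS (glutamate and proline) at 0.55 ± 0.03 and SARS at 0.52 ± 0.03.

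All 7 cytosolic members with a C/EBP-ATF element in the searched window rose at 24 h, with a median of 0.38 (range 0.11 for IARS to 0.996 for CARS). Of the 9 cytosolic members whose window lacked it, 3 rose (WARS, EPRS and SARS) and 5 fell, with a median of −0.11. The 4 cytosolic members that were not searched had a median of 0.07. YARS2, the single mitochondrial holder, fell by 0.45. The same counts at 48 h against 0 h were 4 higher and 2 lower of the 7 holders (median 0.21) and 3 higher and 5 lower of the 9 others (median −0.17). From 24 to 48 h all 7 holders and 7 of the 9 others fell, with medians of −0.28 and −0.24. In the siKDM6B libraries the medians were −0.01 and 0.04 with 0 called in either. Over all genes tested, 27.3% were called higher and 28.0% lower at 24 h. The shares were 37.1% and 34.4% at 48 h, and 25.9% and 28.0% from 24 to 48 h.

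The cytosolic members that fell at 24 h were VARS, HARS, FARSB, FARSA, KARS and QARS. VARS, the valine enzyme (chromosome 6, 31745295 to 31763529, minus strand), went from 279 and 283 CPM at 0 h to 182 and 182 at 24 h and 93.9 and 97.6 at 48 h. No library overlapped another time, and VARS changed by −0.62 ± 0.03 by 24 h and by −1.55 ± 0.03 by 48 h on the log2 scale (adjusted p = 2.99e-38), the largest fall of any member. KARS, the lysine enzyme of both compartments, fell by 0.14 and 0.34. GARS and KARS thus moved in opposite directions, and both serve cytosol and mitochondria.

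**Figure D1:**
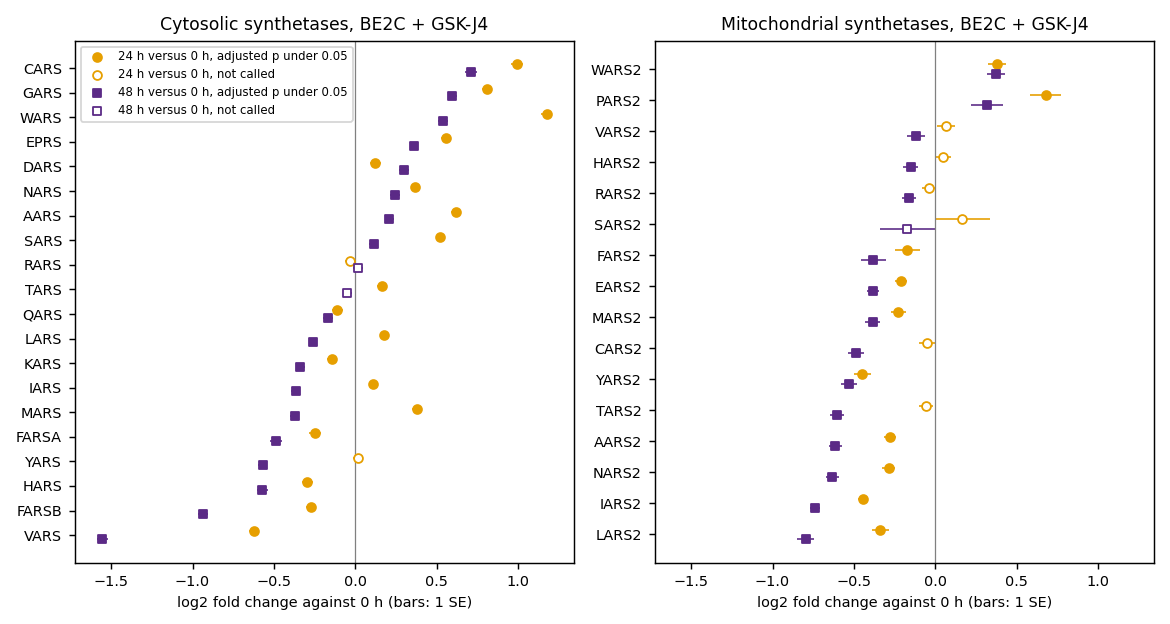
Log2 fold change of each synthetase in BE2C cells after 24 h (circles) and 48 h (squares) of GSK-J4 against 0 h, with bars of 1 standard error and filled symbols for an adjusted p under 0.05. Cytosolic members (left) spread from VARS at −1.55 to WARS at 1.18, and all mitochondrial members (right) except WARS2 and PARS2 lay below 0 at 48 h.

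Within the mitochondrial set, only PARS2 and WARS2 rose at 24 h. PARS2, the proline enzyme (chromosome 1, 55222571 to 55230196, minus strand), measured 6.21 and 5.99 CPM at 0 h, 9.99 and 9.56 CPM at 24 h and 7.49 and 7.77 CPM at 48 h, and its change was 0.68 ± 0.10 at 24 h (adjusted p = 4.39e-08) and 0.32 ± 0.10 at 48 h. It is among the lowest members, and the 48 h call was lost with DESeq2 (0.28, adjusted p = 0.101). WARS2, the tryptophan enzyme, measured 25.3 and 23.6 CPM at 0 h, 32.0 and 31.6 CPM at 24 h and 30.4 and 33.1 CPM at 48 h and rose by 0.38 ± 0.06 and 0.37 ± 0.06. YARS2 (tyrosine) and IARS2 (isoleucine) had the largest mitochondrial falls at 24 h, −0.45 and −0.45.

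At 48 h the balance of the cytosolic set had turned: 8 members were higher than at 0 h and 10 lower, while the mitochondrial set had 2 higher and 13 lower. The share of all genes called was 37.1% higher and 34.4% lower. Medians were −0.11 for the cytosolic set, −0.38 for the mitochondrial set and 0.05 for all genes, a difference between sets of 0.28. The level difference had a standard deviation of 0.03 between replicate libraries. With upper-quartile scaling the median of all genes moved from 0.05 to 0.16 and that of the cytosolic set to 0.00, so the sign of the cytosolic median at 48 h rested on the scaling, and the mitochondrial median was −0.27. Relative to the median of all genes, both sets stood lower under either scaling.

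The 5 largest cytosolic changes upward at 48 h were CARS at 0.71 ± 0.04, GARS at 0.60 ± 0.03, WARS at 0.54 ± 0.03, EPRS at 0.36 ± 0.03 and DARS at 0.30 ± 0.03. EPRS measured 709 and 732 CPM at 0 h, 1046 and 1070.2 CPM at 24 h and 914 and 935 CPM at 48 h. DARS, the aspartate enzyme, was the single cytosolic member called higher at 48 h than at 24 h, with 106 and 109 CPM at 0 h, 118 and 116 CPM at 24 h and 132 and 132 CPM at 48 h. The 5 downward were VARS, FARSB, HARS (histidine), YARS (tyrosine) and FARSA. FARSB, the beta subunit of the phenylalanine enzyme, measured 199.5 and 202 CPM at 0 h, 165 and 167 CPM at 24 h and 104 and 106 CPM at 48 h, a fall of 0.94 with standard error 0.03. Its partner subunit FARSA fell less, by 0.49, from 99.6 and 104 to 70.0 and 75.1 CPM. HARS fell by 0.57 and YARS by 0.57. At 24 h YARS was not called (0.02 ± 0.03, adjusted p = 0.698), with 203 and 203 CPM at 0 h, 204 and 206 at 24 h and 137 and 136 at 48 h. HARS shares 11.3% of its exonic bases with exons of WDR55, and HARS and HARS2 start from opposite strands of one shared region, and the strand setting of the counting is not given in the sources used here.

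The 5 mitochondrial members with the largest falls at 48 h were LARS2 (leucine), IARS2, NARS2 (asparagine), AARS2 (alanine) and TARS2 (threonine). LARS2 measured 38.9 and 41.3 CPM at 0 h, 32.6 and 31.0 CPM at 24 h and 23.2 and 23.1 CPM at 48 h, and its log2 fold change was −0.80 ± 0.05 (adjusted p = 1.75e-18). IARS2 measured 202 and 202 CPM at 0 h, 147 and 149.5 CPM at 24 h and 121 and 121 CPM at 48 h, with −0.74 ± 0.03 at 48 h. In both genes each time point lay below the one before with no overlap of libraries. NARS2 fell by 0.63, AARS2 by 0.61 and TARS2 by 0.60. The upper end of the set was WARS2 and PARS2, then VARS2 (−0.12 ± 0.05), HARS2 (−0.15 ± 0.04) and RARS2 (−0.16 ± 0.04). These 3 small falls lost their calls with upper-quartile scaling. VARS2 also lost its call with limma-voom, with DESeq2, with each file as a sample and without either 0 h library or 48 h library 2, and HARS2 without 0 h library 2 or 48 h library 2 (adjusted p = 0.0704 and 0.0782).

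**Figure D2:**
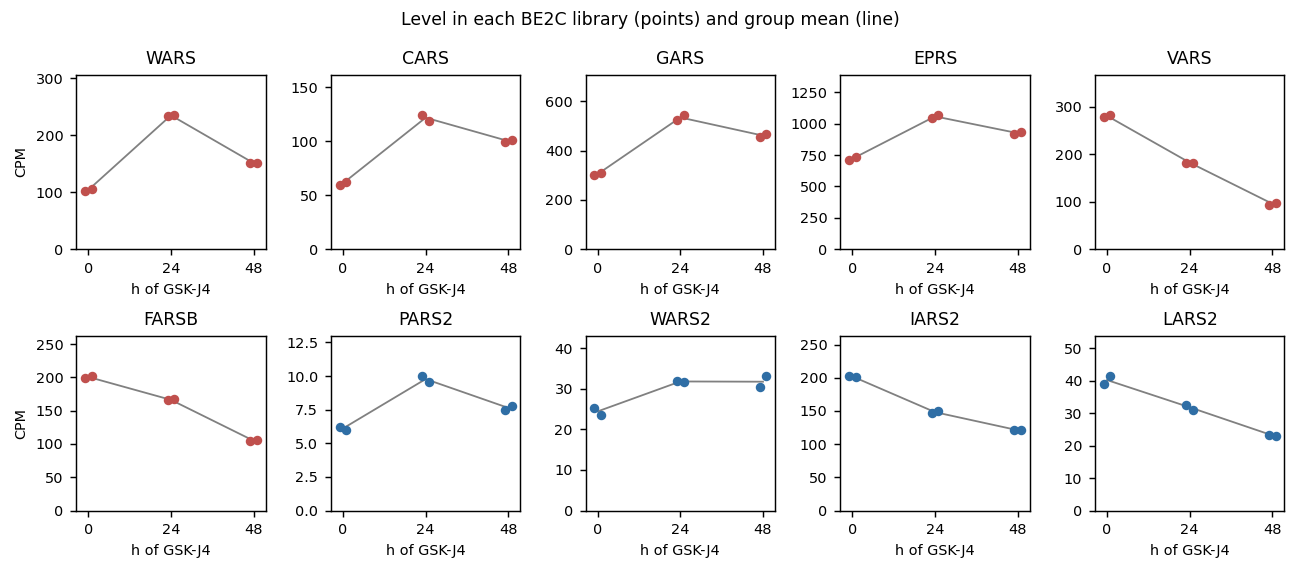
Level in CPM (vertical axis, from 0) of 6 cytosolic (red) and 4 mitochondrial (blue) synthetases in each BE2C library against hours of GSK-J4, with a line through the group means. WARS peaked at 234 and 236 CPM at 24 h, and VARS declined from 279 and 283 to 93.9 and 97.6 CPM.

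Between 24 and 48 h both sets declined: 17 cytosolic members fell and 1 rose (DARS, 0.17 ± 0.03), and 13 mitochondrial members fell and none rose (0 higher also at an unadjusted p under 0.05, and 0 with limma-voom and DESeq2). Of all genes, 25.9% were called higher and 28.0% lower (4593 and 4958 genes, or 5558 and 4007 with upper-quartile scaling). The medians were −0.28 and −0.25, a difference between sets of −0.03, and the level difference had a standard deviation of 0.03 between replicate libraries. Without GARS and KARS, which serve both compartments, the cytosolic median was −0.35 and the difference −0.10. VARS (−0.93 ± 0.03) and MARS, the methionine enzyme (−0.75 ± 0.03), fell most in the cytosolic set, and TARS2 (−0.55 ± 0.04) and LARS2 (−0.46 ± 0.05) in the mitochondrial set. GARS fell by 0.21 and KARS by 0.19. RARS (0.05 ± 0.03, adjusted p = 0.154), YARS2 (−0.08 ± 0.05) and WARS2 (−0.01 ± 0.05) were not called. MARS had been higher at 24 h and ended below its starting level, with 349 and 368 CPM at 0 h, 460.1 and 473 CPM at 24 h and 272 and 282 CPM at 48 h. The contrasts against 0 h share the 2 libraries at 0 h, and those of 48 h share the libraries at 48 h, so their values are given side by side and not counted as separate evidence.

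The sets were also compared over 15 pairs of a cytosolic gene and the mitochondrial gene of matching symbol and amino acid (FARSA and FARSB each paired with FARS2). EPRS was left unpaired. At 24 h it was at 0.55, above EARS2 (glutamate, −0.21) and below PARS2 (proline, 0.68). The cytosolic member had the higher log2 fold change in 11 of 15 pairs at 24 h (median difference 0.46) and in 10 of 15 at 48 h (median 0.18). The widest gaps at 24 h were CARS over CARS2 (0.996 against −0.05) and AARS over AARS2 (0.62 against −0.28). VARS and VARS2 had the widest gap the other way (−0.62 against 0.07), and arginine's RARS and RARS2 were nearly equal (−0.03 against −0.04).

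Partner genes outside the 36 were counted from lists fixed with the design. For comparison, 27.3% of all genes tested were called higher and 28.0% lower at 24 h, and 37.1% and 34.4% at 48 h. Of 27 genes of the integrated stress response, 25 rose at 24 h and none fell, with a median of 1.35, and 25 rose and 1 fell at 48 h. TRIB3 (3.74) and CHAC1 (3.57) lay at the upper end at 24 h, together with NUPR1, which was at 0 CPM in both 0 h libraries and at 2.68 and 1.66 CPM at 24 h, and the kinase genes EIF2AK3 (0.03) and EIF2AK1 (0.04) at the lower end without a call. Of the 3 scaffold proteins of the multi-enzyme complex, AIMP2 (−0.12) and EEF1E1 (−0.20) fell at 24 h, and AIMP1 was at −0.01. At 48 h AIMP2 fell by 0.62 and AIMP1 rose by 0.18. The 8 synthetases bound in that complex had 5 higher and 2 lower at 24 h (median 0.12), and the 12 others 7 higher and 4 lower (median 0.27). The 10 class I and 10 class II enzymes, which differ in the fold of the catalytic domain, had the same count of 6 higher at 24 h, with 2 and 4 lower and medians of 0.14 in both.

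Mitochondrial translation genes other than the synthetases declined together with them. The shares of all genes beside the counts below were 27.3% higher and 28.0% lower at 24 h, and 37.1% and 34.4% at 48 h. Of 14 partners of the mitochondrial set (among them amidotransferase subunits and initiation, elongation and release factors), 1 rose and 11 fell at 24 h, and none rose and 11 fell at 48 h, with medians of −0.24 and −0.45. The elongation factor genes GFM1 (−0.87) and TUFM (−0.76) fell at 48 h, and MRRF (−0.01) and MTRF1 (0.05) lay at the upper end. Of 78 mitochondrial ribosomal protein genes, 6 rose and 58 fell at 24 h, and 5 rose and 63 fell at 48 h (medians −0.30 and −0.50). Cytosolic elongation and tRNA maturation genes split: EEF2 (0.78) and EEF1A1 (0.47) rose at 48 h, and ELAC2 (−1.34) and TRNT1 (−0.80) fell, with 5 of 8 tested higher and 3 lower. TARSL2, a second cytosolic threonine enzyme, was at −0.14 and −0.01 and was not called. Of 8 proliferation genes, 7 fell at 24 h and 8 at 48 h (median −0.59 at 48 h), and the part of these changes in those of the synthetases was not tested.

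**Figure D3:**
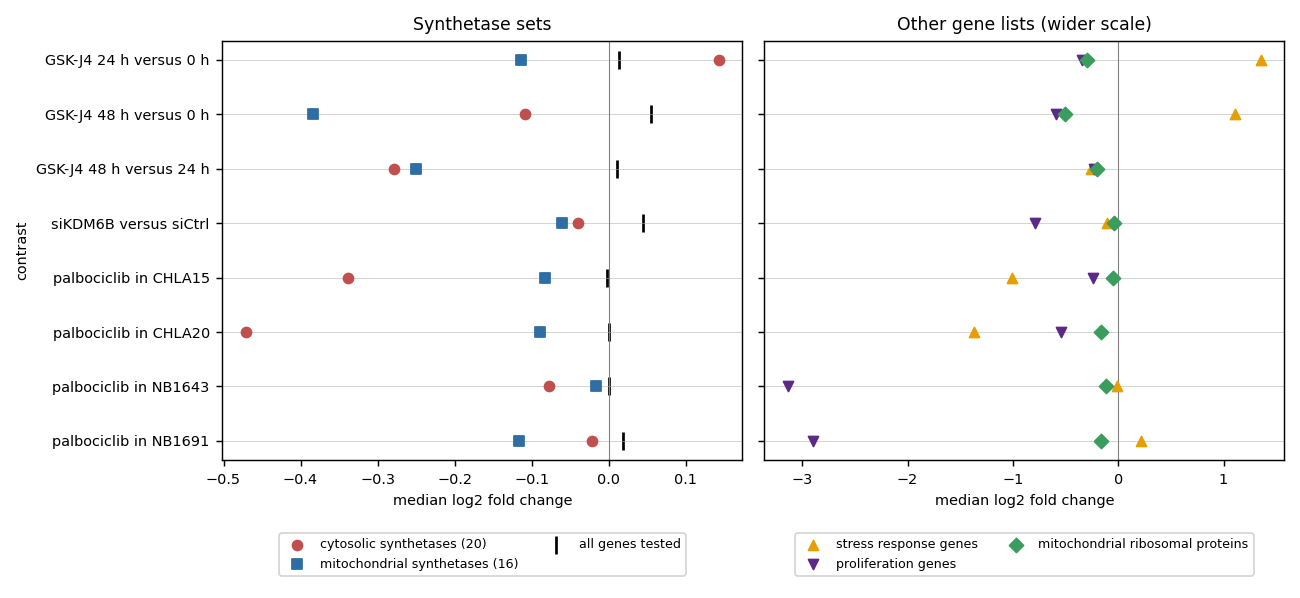
Median log2 fold change (horizontal axis) of the 20 cytosolic synthetases, the 16 mitochondrial synthetases and all genes tested in each contrast (left), and of 3 other gene lists on a wider scale (right). The cytosolic median was lowest with palbociclib in CHLA20 (−0.47) and highest after 24 h of GSK-J4 (0.14), and the stress response list was at −1.36 and 1.35 in the same contrasts.

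Most cytosolic synthetases fell with palbociclib in CHLA15 and CHLA20 cells. In CHLA15, 16 of 20 fell and HARS rose, against 15.6% of all 22133 genes called lower and 14.2% higher; the median was −0.34. In CHLA20, 18 fell and HARS rose, against 15.9% lower and 13.7% higher; the median was −0.47. The mitochondrial set moved less, with 5 lower and 2 higher in CHLA15 (median −0.08) and 5 lower and 0 higher in CHLA20 (median −0.09). At an unadjusted p under 0.05, 1 mitochondrial member was higher in CHLA20 (NARS2), which limma-voom called and DESeq2 did not. The sets differed by −0.26 in CHLA15 and −0.38 in CHLA20. With 1 library left out the difference ran from −0.30 to −0.22 in CHLA15 and from −0.42 to −0.29 in CHLA20. The level difference had standard deviations of 0.05 and 0.01 between replicate libraries, which understate this movement in CHLA20. Cytosolic members took 0.419% and 0.445% of counts in untreated CHLA15 and 0.312% and 0.317% with palbociclib, and 0.495% and 0.466% in untreated CHLA20 and 0.320% and 0.316% with palbociclib.

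AARS and CARS had the largest falls in both lines. In CHLA20, CARS measured 53.7 and 50.3 CPM with palbociclib and 128 and 117 CPM without, a log2 fold change of −1.24 ± 0.06 (adjusted p = 6.93e-11). AARS measured 83.1 and 79.1 CPM with palbociclib and 195 and 174 CPM without, a log2 fold change of −1.19 ± 0.06. No treated library of either gene reached the lower of its untreated libraries. In CHLA15 the changes were −0.91 ± 0.06 for AARS and −0.86 ± 0.06 for CARS. GARS measured 186 and 186 CPM with palbociclib and 435 and 408 CPM without in CHLA20 and 196 and 196 CPM with palbociclib and 317 and 336 CPM without in CHLA15, falling by 1.18 and 0.74. YARS (−1.16 and −0.85), MARS (−0.99 and −0.67), IARS (−0.86 and −0.54) and SARS (−0.74 and −0.73) followed in CHLA20 and CHLA15. KARS fell by only 0.26 and 0.17, and in CHLA15 it lost its call without any 1 of the 4 libraries (adjusted p from 0.0571 to 0.0847).

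HARS was the single cytosolic member that rose, by 0.25 ± 0.05 in CHLA15 and 0.27 ± 0.05 in CHLA20. Its level was 94.5 and 98.0 CPM with palbociclib and 80.4 and 81.4 CPM without in CHLA15, and 101 and 97.9 CPM with palbociclib and 81.7 and 82.9 CPM without in CHLA20, with no overlap. FARSA was at 0.04 ± 0.06 and 0.04 ± 0.06 and was not called in either line. All 7 cytosolic genes with a C/EBP-ATF element fell in both lines, with medians of −0.67 and −0.99. The 9 without had 6 and 7 falls and medians of −0.20 and −0.26. Over all genes tested, 15.6% and 15.9% were called lower. Among the same-amino-acid pairs, the cytosolic member had the lower log2 fold change in all but 4 of 15 in CHLA15 and all but 2 of 15 in CHLA20.

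In the mitochondrial set of CHLA15, EARS2, the glutamate enzyme (−0.29 ± 0.06), and VARS2 (−0.27 ± 0.07) fell most, and NARS2 (0.19 ± 0.06) and RARS2 (0.18 ± 0.06) rose. In CHLA20, PARS2 (−0.32 ± 0.11) and EARS2 (−0.31 ± 0.06) fell most, and NARS2 (0.17 ± 0.06, adjusted p = 0.0528) and RARS2 (0.09 ± 0.06) were not called. PARS2 in CHLA20 is a low gene at 4.06 and 5.08 CPM with palbociclib and 5.97 and 5.44 CPM without, and its call was lost with limma-voom, with the compared groups alone and without palbociclib library 1 or control library 1. RARS2 in CHLA15 lost its call without any 1 of the 4 libraries, NARS2 without palbociclib library 1 or either control library, and VARS2 without palbociclib library 1 or control library 2. With any 1 library left out, 0 or 1 mitochondrial members were called higher and 2 to 4 lower in CHLA15. The same held for CHLA20, where 2 were called lower without palbociclib library 1 and 3 without palbociclib library 2 or control library 2.

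In NB1643 cells the sets were closer together, with 2 cytosolic members higher and 9 lower (median −0.08) and 3 mitochondrial members higher and 3 lower (median −0.02), against 20.3% of all genes called higher and 19.7% lower. Upper-quartile scaling gave 4 cytosolic members higher and 6 lower, and the mitochondrial median was 0.04 with it and 0.01 with DESeq2 size factors. DARS (−0.45 ± 0.06) and IARS (−0.40 ± 0.05) fell most, with 141 and 146 CPM with palbociclib and 180.3 and 211 CPM without for DARS. WARS rose by 0.40 ± 0.06, from 47.8 and 49.0 to 63.0 and 64.3 CPM, and HARS by 0.26 ± 0.05. GARS fell by 0.33 and KARS by 0.20. In the mitochondrial set LARS2 (0.41 ± 0.06) and HARS2 (0.38 ± 0.05) rose, with 51.8 and 50.9 CPM with palbociclib and 40.7 and 36.4 CPM without for LARS2, and MARS2 (−0.34 ± 0.07) and EARS2 (−0.28 ± 0.06) fell.

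In NB1691 cells 4 cytosolic members rose (GARS, MARS, QARS and CARS) and 5 fell (FARSB, AARS, DARS, KARS and RARS), with a median of −0.02, and no mitochondrial member rose while 4 fell (median −0.12), against 17.4% of all genes called higher and 15.5% lower. No mitochondrial member was higher at an unadjusted p under 0.05 with edgeR or by adjusted p with limma-voom and DESeq2. Upper-quartile scaling gave 5 cytosolic members higher and 4 lower and a cytosolic median of 0.02. The fit of the 2 NB1691 groups alone gave 8 lower in each set, and leaving out palbociclib library 2 or control library 2 left 0 mitochondrial members called. Without palbociclib library 2 the cytosolic falls were 2, and without either control library 3. GARS measured 388 and 385 CPM with palbociclib and 310.2 and 322 CPM without, a log2 fold change of 0.29 ± 0.05 (adjusted p = 0.000138), and MARS 1401 and 1371 CPM with palbociclib and 1135 and 1169.9 CPM without, a change of 0.27 ± 0.06. FARSB fell most (−0.47 ± 0.06), from 63.1 and 65.0 to 48.1 and 44.5 CPM, then AARS (−0.33 ± 0.05). KARS fell by 0.17, a call lost without palbociclib library 2 or either control library. MARS2 (−0.25 ± 0.08) and NARS2 (−0.24 ± 0.07) had the largest mitochondrial falls, both lost without palbociclib library 2 or control library 2, and PARS2 (0.16 ± 0.10) and RARS2 (0.06 ± 0.06) lay at the upper end without a call.

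**Figure D4:**
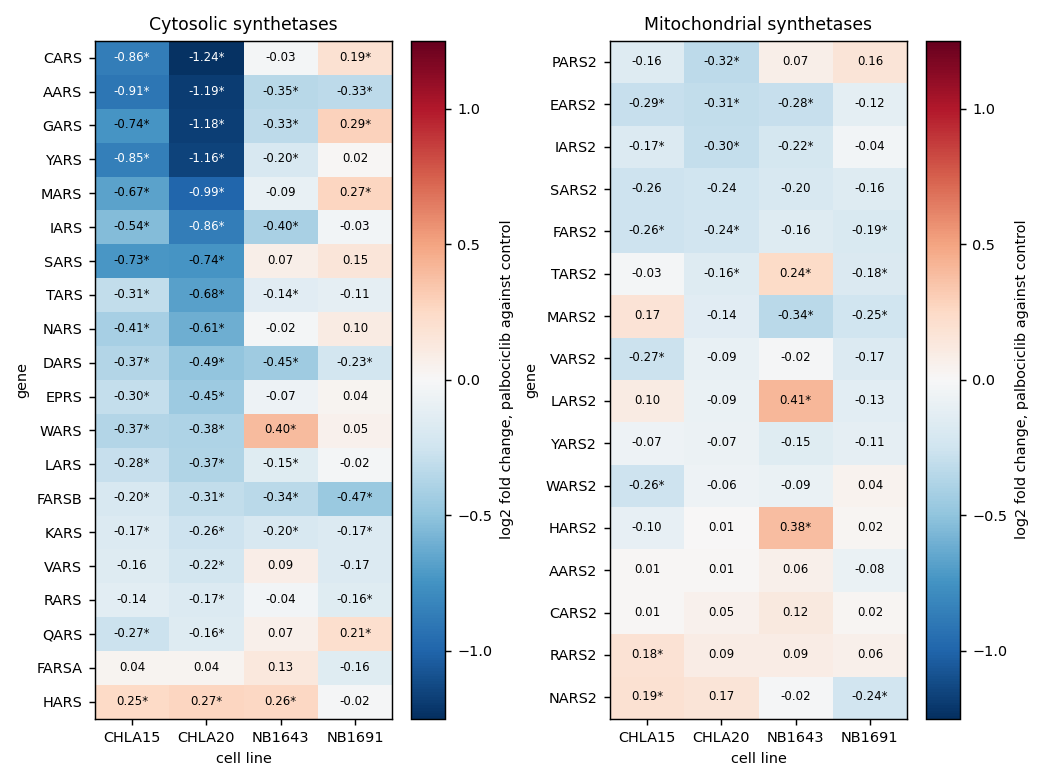
Log2 fold change with palbociclib against untreated cells for each synthetase (rows) in each of 4 lines (columns), coloured from blue (lower) to red (higher), with the value printed and an asterisk for an adjusted p under 0.05. The deepest falls were in the upper rows of the cytosolic set in CHLA15 and CHLA20, where CARS reached −1.24, while AARS, CARS, GARS, IARS, MARS, SARS and YARS lay between −0.40 and 0.29 in NB1643 and NB1691.

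A test of whether the palbociclib change differed among the 4 lines (edgeR, 3 degrees of freedom) called 14 of 20 cytosolic and 6 of 16 mitochondrial members, against 38.0% of all genes. GARS (adjusted p = 5.12e-11), CARS (4.76e-10) and YARS (1.69e-09) had the smallest p in the cytosolic set, and each fell in CHLA15 and CHLA20 and was at 0.29, 0.19 and 0.02 in NB1691. In the mitochondrial set the smallest were HARS2 (0.000385), LARS2 (0.000482) and TARS2 (0.000774), and each rose in NB1643 while none of the 3 rose in another line. KARS was not called (adjusted p = 0.696), and fell by 0.17 to 0.26 in every line. Beside these values, the 27 stress response genes had 21 lower and 1 higher in CHLA15 (median −1.01), 22 lower and 1 higher in CHLA20 (−1.36), 10 lower and 3 higher in NB1643 (−0.01) and 2 lower and 13 higher in NB1691 (0.21). The 8 proliferation genes had medians of −0.24, −0.54, −3.14 and −2.90 in the same order. The shares of all genes called lower in these lines were 15.6%, 15.9%, 19.7% and 15.5%. Those called higher were 14.2%, 13.7%, 20.3% and 17.4%. The part of either list in the synthetase changes was not tested. Of the 7 cytosolic genes with a C/EBP-ATF element, 4 fell and 0 rose in NB1643 (median −0.14), and 1 fell and 3 rose in NB1691 (median 0.10), where the 9 without it had medians of 0.07 and −0.02. AIMP1 fell in CHLA15 (−0.58), CHLA20 (−0.52) and NB1643 (−0.33).

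The untreated lines differed most in the level of MARS. The ratio of the highest to the lowest line mean was largest for MARS, with 1135 and 1169.9 CPM in NB1691 and 101 and 97.2 in NB1643 (11.6-fold between means), then for YARS (3.12-fold, CHLA20 over NB1643). In the mitochondrial set it was largest for PARS2 (2.89-fold, NB1643 over CHLA15) and SARS2 (2.82-fold, CHLA15 over NB1643). It was smallest for VARS (1.15-fold) and HARS (1.20-fold) in the cytosolic set and for VARS2 (1.19-fold) and HARS2 (1.34-fold) in the mitochondrial set. The median ratio was 1.73-fold over the cytosolic and 1.58-fold over the mitochondrial set. These ratios are descriptions and were not tested.

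No synthetase was called between the 3 libraries labelled siKDM6B and the 2 siCtrl libraries by edgeR, nor was any other gene (0.0% of 17472, against 1615 genes at an unadjusted p under 0.05). SARS was the single member at an unadjusted p under 0.05 (−0.50 ± 0.20, edgeR adjusted p = 0.53). Its libraries measured 381, 342 and 421 CPM in N1, N2 and N33 and 551 and 529.6 CPM in siCtrl. limma-voom and DESeq2 called 0 members too (DESeq2 called 44 genes higher and 74 lower over all genes), and the smallest adjusted p of any member without N33 was 0.205. Every siKDM6B library lay above both siCtrl libraries for 2 cytosolic members (HARS and WARS) and 1 mitochondrial member (WARS2), against 16.3% of all genes. They lay below both for 5 cytosolic (DARS, FARSA, MARS, SARS and VARS) and 3 mitochondrial members (AARS2, NARS2 and VARS2), against 16.8%. The medians were −0.04 for the cytosolic and −0.06 for the mitochondrial set, a difference of 0.02. The level difference had a standard deviation of 0.18 between libraries, pooled over siCtrl and the 3 siRNAs taken as 1 group. Each siRNA had 1 library, so this value includes the spread between siRNAs. The same holds for the p-values and standard errors of this contrast.

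The cytosolic set stood on different sides of the siCtrl mean in the 3 libraries labelled siKDM6B. The library labelled N33 put 12 of 20 cytosolic members above the siCtrl mean (median log2 difference 0.36), whereas N1 put 16 below (median −0.28) and N2 14 below (median −0.10). In the mitochondrial set 9 of 16 lay below in N33 (median −0.13), 14 in N1 (median −0.13) and 8 in N2 (median 0.00032). Over all genes tested the medians were −0.00082, 0.0042 and 0.0029 in N33, N1 and N2, and the standard deviation over genes was 0.79 in N33 against 0.55 and 0.51 in N1 and N2. Cytosolic members took 0.789% of counts in N33, 0.448% in N1 and 0.546% in N2, against 0.587% and 0.584% in siCtrl. EPRS stood at 1043 CPM in N33, against 458 and 543 in N1 and N2 and 577 and 557 in siCtrl. VARS stood at 69.7 CPM in N33, against 141 and 201 in N1 and N2 and 228 and 255 in siCtrl, so that EPRS and VARS moved apart in N33. The largest fitted differences were VARS (−0.81 ± 0.42) and SARS at the lower end and HARS (0.42 ± 0.29) and WARS (0.36 ± 0.27) at the upper end of the cytosolic set, and AARS2 (−0.50 ± 0.32), NARS2 (−0.33 ± 0.20), PARS2 (0.47 ± 0.36) and WARS2 (0.47 ± 0.26) in the mitochondrial set. GARS (0.04 ± 0.29) and KARS (0.04 ± 0.24) were near 0, and without N33 GARS was at −0.23. The neuroblastoma markers summed to 491 CPM in N33 and 801 to 1047 CPM in the other 4 libraries, and the stromal and other cell markers to 205 CPM against 64.4 to 96.6 CPM. The 8 proliferation genes summed to 739 CPM in N33 and 1969 to 2726 CPM in the others. The part of these in the N33 values was not tested.

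**Figure D5:**
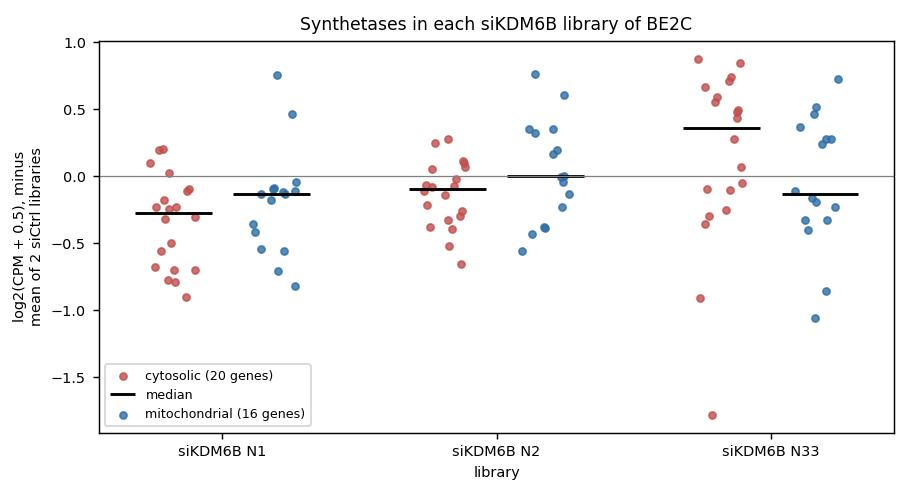
Difference in log2(CPM + 0.5) of each synthetase between a single siKDM6B library and the mean of the 2 siCtrl libraries (vertical axis), for cytosolic (red) and mitochondrial (blue) members, with black bars at the medians. The cytosolic median was −0.28 in N1, −0.10 in N2 and 0.36 in N33.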

How the data were processed

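RNA-seq of 38 samples was used, which form 27 libraries, since each BE2C library was deposited as 2 files that differed less (chi-square per degree of freedom 1.48 to 1.65) than files of different replicates (1.93 to 4.04). Per the study's methods, the authors aligned paired-end reads to GRCh37 and counted reads per gene. The gene annotation named there is a mouse GENCODE release although the deposited symbols are human, so the annotation behind the counts is not known, and lengths and exon overlaps were taken from another annotation. CASAVA, STAR 2.5.3a and HTSeq are named in the submitters' processing notes, and the strand setting of the counting is not given in the sources used here. The deposited values are whole-number counts per gene symbol. Summary lines naming no gene were left out, of which reads in no feature were 5.10% to 16.8% of each library.

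Each experiment was fitted separately with edgeR 4.0.16 in R 4.3.3 (TMM scaling, quasi-likelihood test, low counts filtered with filterByExpr), which left 17734, 17472 and 22133 genes tested for GSK-J4, siRNA and palbociclib. Adjusted p-values follow Benjamini and Hochberg over all genes tested, with a threshold of 0.05. Standard errors are those of the fitted log2 fold change. The scripts were tested on simulated counts. Alternatives were limma-voom (limma 3.58.1), DESeq2 1.42.0, upper-quartile scaling, no filter, a fold threshold of 0.5 on the log2 scale, a replicate block, the compared groups alone, each file as a sample, GARS and KARS left out and each library left out. Differences per siRNA library used log2(CPM + 0.5). Gene positions are GRCh37, and promoters come from the RefSeq table of GRCh38.p14.

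The members and lists were chosen with earlier results of these data known. Members named with values are the 2 of each set at either end of each contrast (5 at 48 h of GSK-J4 against 0 h), the 3 of each set with the smallest interaction p, the 2 of each set with the largest and smallest ratio between untreated lines, and GARS and KARS throughout. Related lists are counted, with the 2 at either end named except for a gene that is not reported here, and other named genes were chosen after their values were seen.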

Additional observations from a re-analysis of the deposited data

Results flagged for a closer look

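The palbociclib change differed among the 4 lines, by the edgeR quasi-likelihood interaction test over all genes, for 20 members. These were 14 of 20 cytosolic and 6 of 16 mitochondrial members, against 8403 of 22133 genes (38.0%) called by the same test. The mitochondrial count is thus near the share of all genes. In the cytosolic set the adjusted p was 5.12e-11 for GARS, 4.76e-10 for CARS, 1.69e-09 for YARS, 2.31e-09 for MARS, 2.15e-08 for SARS, 6.95e-08 for AARS, 6.03e-07 for WARS, 8.3e-07 for IARS, 1.64e-06 for NARS, 4.91e-06 for TARS, 2.24e-05 for QARS, 0.000204 for EPRS, 0.00277 for LARS and 0.00522 for HARS. In the mitochondrial set it was 0.000385 for HARS2, 0.000482 for LARS2, 0.000774 for TARS2, 0.00264 for NARS2, 0.00294 for MARS2 and 0.0291 for IARS2. The range of the fitted log2 fold changes over the lines was widest for GARS, from −1.18 in CHLA20 to 0.29 in NB1691, and CARS, from −1.24 to 0.19. HARS2 lay between −0.10 in CHLA15 and 0.38 in NB1643. Lines and doses cannot be told apart for CHLA15 and CHLA20 against NB1643 and NB1691. CHLA15 and CHLA20 received the same dose, and the fitted changes of GARS there were −0.74 and −1.18.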

How the results depend on the processing

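Requiring a log2 fold change beyond 0.5 as well left 6 cytosolic members higher and 1 lower and 1 mitochondrial member higher and 0 lower at 24 h, 3 and 4 against 0 and 6 at 48 h, 0 and 5 against 0 and 1 from 24 to 48 h, 7 cytosolic members lower in CHLA15 and 9 in CHLA20, and 0 in every other count of these 2 lines and in all counts of NB1643 and NB1691. DESeq2 gave 1 mitochondrial member higher at 48 h. Upper-quartile scaling gave 2 cytosolic members higher from 24 to 48 h, 1 mitochondrial member higher in CHLA20, 4 cytosolic members higher in NB1643 and 2 mitochondrial members lower in NB1691. Without the filter, 3 mitochondrial members were lower in CHLA20 and 1 in NB1691. The compared groups alone gave 2 mitochondrial members lower in CHLA20 and 8 of each set in NB1691. With each file as a sample, 2 cytosolic members were higher from 24 to 48 h, and 1 cytosolic (SARS) and 1 mitochondrial (NARS2) member were lower in the siKDM6B libraries. limma-voom gave 1 mitochondrial member higher in CHLA20. Without GARS and KARS the sets differed by −0.10 from 24 to 48 h.

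The replicate block gave 1 mitochondrial member higher and 2 lower in CHLA20 and moved no other count of members by over 1.5 times. Deviations of same-numbered libraries correlated at 0.03, 0.01 and 0.01 between the GSK-J4 times. Between the palbociclib and untreated groups of CHLA15, CHLA20, NB1643 and NB1691 they correlated at 0.11, 0.06, −0.09 and −0.01. The main fits therefore did not pair libraries by number. With 1 difference per group, low correlations cannot exclude a shared culture or batch. No paired analysis was possible for the siRNA libraries because each siRNA has 1 library.

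With 1 library left out, the difference between sets ran from 0.22 to 0.29 at 24 h, 0.26 to 0.33 at 48 h, −0.42 to −0.29 in CHLA20 and 0.036 to 0.11 in NB1691. Mitochondrial members numbered 0 to 1 higher and 2 to 4 lower in CHLA15, 0 to 1 higher and 2 to 4 lower in CHLA20 and 0 to 3 lower in NB1691, where cytosolic members lower numbered 2 to 4. Where this leaves a group with 1 library, that library is assumed to vary like the others. WARS2 from 24 to 48 h turned to 0.056 with upper-quartile scaling and 0.0035 with each file as a sample, and ran from −0.071 to 0.052 (without 48 h library 1) with 1 library left out. GARS in the siKDM6B libraries turned to −0.0045 with limma-voom and ran from −0.23 (without N33) to 0.22 with 1 library left out, and KARS from −0.082 (without N2) to 0.19. FARSA in CHLA20 ran from −0.094 (without control library 1) to 0.15, and was −0.0025 without palbociclib library 2. None of these was called. Over all named members and alternatives, 1078 values kept direction and call, 84 lost the call, 8 gained it and 8 changed sign; the cause was not tested. With 2 libraries a group, small changes are the least certain.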

Other observations

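MARS, the member that differed most between untreated lines, lies on chromosome 12 (57869228 to 57911352, GRCh37). Of the 35 other genes at 1 CPM or more within 500000 bases on either side of it, 28 (80.0%) had an untreated level in NB1691 over 3-fold above the highest of the other 3 lines, against 2545 of 16570 genes (15.4%) over the genome. The ratio was 3.72 for MARS itself, 93.4 for OS9, 34.7 for METTL1, 21.5 for CDK4, the kinase that palbociclib inhibits, and 20.9 for TSFM, a mitochondrial translation elongation factor, whereas SHMT2 was lower in NB1691, at a ratio of 0.208. These values rest on 2 libraries a line, and the span was examined because MARS was high in NB1691.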
